A study of Mus musculus with 24 samples.

Results

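This account follows 9 genes of the oxygen sensing and hypoxia response in mouse gastrocnemius muscle, picked by name from the 55401 genes of the count table: Egln1, Egln2, Egln3, Hif1a, Epas1, Vegfa, Bnip3, Ankrd37 and Adm. Each symbol mapped to exactly 1 Ensembl identifier, and all 9 had enough counts to be tested. Male C57BL6 mice received either a scald covering 25% of their body surface or a sham procedure, and the muscle, which lies away from the burned trunk, was taken 24 h later. The groups were adult sham, adult burn, young sham and young burn, with 3 mice in each. Adult mice arrived at 10 weeks of age and were burned at 11 weeks. Young mice arrived at 4 weeks and were burned at 5 weeks. All groups received the same anaesthesia and buprenorphine, but only burned mice were resuscitated with lactated Ringer's solution, so that burn and fluid cannot be told apart. Poly-A RNA and small RNA were sequenced from every mouse, giving 12 libraries of either kind.

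Cells sense oxygen through prolyl hydroxylases, encoded by the Egln genes, which use oxygen to mark the alpha subunits of hypoxia-inducible factor (HIF) for degradation. When oxygen is low the marking slows, the alpha subunits encoded by Hif1a and Epas1 accumulate as protein, and genes with hypoxia response elements are transcribed. Among these are Vegfa, which drives the growth of capillaries, Bnip3, a mitochondrial receptor for autophagy, Ankrd37, a small ankyrin repeat protein, Adm, the vasodilator peptide adrenomedullin, and Egln3 itself, which closes a negative feedback loop. Since the factors are controlled mainly as proteins, the RNA of Hif1a and Epas1 is not a measure of their activity.

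The mRNA libraries held 4392605 to 5688512 counts each. The adult burn libraries, at 5585064 to 5688512, were deeper than the adult sham libraries, at 4392605 to 4727802. Levels below are CPM, counts scaled to a common library size with TMM normalization. A muscle fibre list of 8 genes, among them Acta1 and Ckm, was present in full in every library and summed to 79208 to 157830 CPM. The study's heat map leaves 1 young burn animal out as an outlier and shows young burn replicates 1 and 3. Each test was for that reason run on 11 libraries, leaving out young burn replicate 2, with 12651 genes tested, and again on all 12, with 12408 genes tested. In young burn replicate 2, 1343 of 12408 genes lay more than 2-fold from the mean of the other young burn libraries, against 173 to 493 genes for the same measure in the other 11 libraries. The 493 belong to young burn replicate 1, whose comparison mean includes replicate 2. The study's RNA quality report gave no integrity number for any sample. Its highest ratios of large to small ribosomal RNA were in adult sham mice. The tests are edgeR quasi-likelihood tests with Benjamini-Hochberg adjustment over all genes, and "called" means that the adjusted p was under 0.05.

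The promoters of 4 genes are shown because they hold from no match to several matches to the core letters of the hypoxia response element and belong to genes with different values below. Each is the RefSeq window on GRCm38.p6 from 250 bases before to 50 after the start, 5′ to 3′ on the gene's strand, with ACGTG or GCGTG on either strand in capitals. Where CACGTG occurs, the same letters match on both strands and were counted on each.
Egln3, chr12:54203825-54204124 (minus strand): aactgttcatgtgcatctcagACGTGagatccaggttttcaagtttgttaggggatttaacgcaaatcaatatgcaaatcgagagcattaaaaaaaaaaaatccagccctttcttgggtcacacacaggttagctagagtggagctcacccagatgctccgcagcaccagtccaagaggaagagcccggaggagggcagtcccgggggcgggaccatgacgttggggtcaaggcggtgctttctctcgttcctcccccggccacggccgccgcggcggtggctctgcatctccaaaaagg
Bnip3, chr7:138909457-138909756 (minus strand): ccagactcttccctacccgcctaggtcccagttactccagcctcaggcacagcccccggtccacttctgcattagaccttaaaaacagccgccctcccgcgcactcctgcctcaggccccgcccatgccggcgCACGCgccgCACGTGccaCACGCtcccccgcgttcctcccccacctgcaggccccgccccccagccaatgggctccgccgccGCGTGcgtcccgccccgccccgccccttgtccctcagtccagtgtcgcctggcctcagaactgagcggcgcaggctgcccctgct
Ankrd37, chr8:45999801-46000100 (minus strand): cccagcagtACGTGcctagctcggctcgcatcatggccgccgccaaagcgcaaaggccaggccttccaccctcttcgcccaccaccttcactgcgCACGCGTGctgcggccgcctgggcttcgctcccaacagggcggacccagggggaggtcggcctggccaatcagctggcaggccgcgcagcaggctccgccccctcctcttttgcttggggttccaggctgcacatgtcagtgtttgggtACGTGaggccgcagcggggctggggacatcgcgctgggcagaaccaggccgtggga
Vegfa, chr17:46032328-46032627 (minus strand): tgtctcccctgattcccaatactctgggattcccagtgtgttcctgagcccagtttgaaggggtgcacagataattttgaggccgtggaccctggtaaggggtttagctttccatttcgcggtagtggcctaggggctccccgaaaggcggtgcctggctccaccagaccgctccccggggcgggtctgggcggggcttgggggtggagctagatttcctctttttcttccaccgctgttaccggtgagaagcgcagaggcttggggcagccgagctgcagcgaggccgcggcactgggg
The Egln3 window held 1 match, 229 bases before the start. Bnip3 held 5 matches, counting both strands, and Ankrd37 held 4. This Vegfa window held none, while the window of a second start at chr17:46025114-46025413 held 2. Of the other windows, Egln1 held 2 matches, Adm 2, Hif1a 3, and the windows of 2 Egln2 starts held 6 and 1. Of all 32851 RefSeq promoter windows, 43.8% held at least 1 match, 3.86% at least 4 and 1.66% at least 5. These are letters in a window, not mapped binding sites. Epas1 had no entry in the table.

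Levels of different genes were compared per kilobase of merged exon (RPKM, computed here). In adult sham muscle, Bnip3 stood at 72.6 ± 24.6 RPKM (SD, n = 3) and Egln1 at 63.6 ± 4.14, which did not differ beyond their spread. Egln2 followed at 38.2 ± 0.858, Vegfa at 34.6 ± 1.21 and Epas1 at 30.7 ± 0.943 RPKM. Egln3 stood at 17.2 ± 4.29, below the other Egln genes, and Hif1a at 6.87 ± 0.225 RPKM, below Epas1. Adm at 5.27 ± 1.29 and Ankrd37 at 2.42 ± 0.790 RPKM were the lowest. From Egln1 downward, the mean ± SD ranges of neighbours in this order did not overlap. In young burn replicate 2, Egln3 was the highest of the 9 at 234 RPKM, ahead of Bnip3 at 132 RPKM, whereas in young burn replicates 1 and 3 it stood at 19.0 and 28.3 RPKM.

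**Figure D1:**
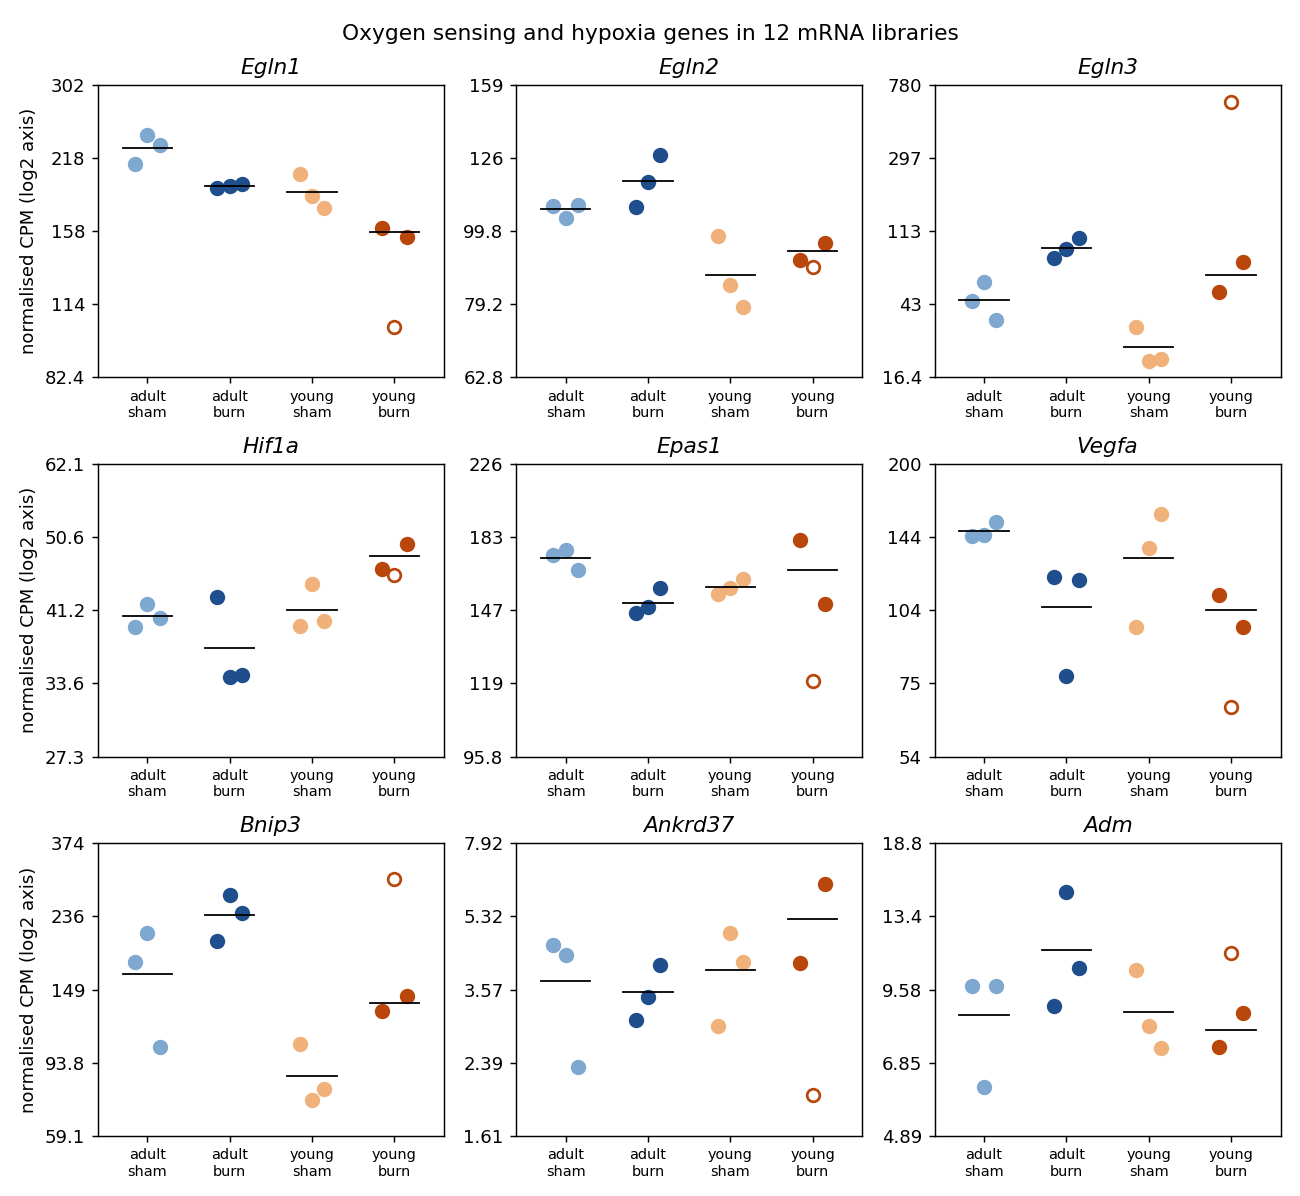
Normalised CPM (log2 axis, own range per panel) of the 9 genes in each of the 12 mRNA libraries, by group. Points are mice, the open point is young burn replicate 2, and bars are group means without it. Egln3 in both burn groups lies above the sham group of the same age, and Egln1 below it.

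In the 11 libraries burn raised Egln3, the inducible prolyl hydroxylase, in both ages, and no other of the 9 genes was called. In adult sham mice Egln3 stood at 44.7, 57.6 and 34.8 CPM, and in adult burn mice at 79.1, 88.9 and 104 CPM. In young sham mice it stood at 31.9, 20.5 and 20.97 CPM, and in young burn mice at 50.5, 624 and 75.4 CPM. All burned mice of an age lay above all sham mice of that age. Such a separation in both ages, upward, was seen in 2.75% of all genes in the 11 libraries and in 2.41% in the 12. The log2 fold change was 0.99 in adults (SE 0.194, edgeR adjusted p = 0.0259) and 1.38 in young mice (SE 0.229, edgeR adjusted p = 0.0189). In a model of age and burn, Egln3 was 1.15 higher on the log2 scale (SE 0.153, edgeR adjusted p = 0.00241), at the 99.7th percentile of all genes. The call was 1 of 9 genes in each of these comparisons, where 0.909% of all genes were called in adults (0.561% upward), 0.664% in young mice (0.458% upward) and 2.15% over both ages (1.46% upward).

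With all 12 libraries Egln3 kept its direction but was not called. Its log2 fold change became 3.36 in young mice (SE 0.731, edgeR adjusted p = 0.0686), 0.99 in adults (SE 0.675, edgeR adjusted p = 0.788) and 2.15 over both ages (SE 0.592, edgeR adjusted p = 0.0982), and edgeR called 0 of the 9 genes in each of these, against 0.0645%, 0.00806% and 0.717% of all genes. At an unadjusted p under 0.05 it held 4 of the 9 in young mice, 1 in adults and 4 over both ages, where 20.3%, 6.87% and 19.5% of all genes passed. DESeq2 on the 12 libraries called Egln3 and Bnip3 in young mice, 0 of the 9 in adults and Bnip3 over both ages, where it gave Egln3 no adjusted p. Its share of all genes called was 3.48% in young mice, 0.0887% in adults and 3.09% over both ages. Young burn replicate 2 is not an adult library, but all groups share 1 estimate of the spread. The adult Egln3 log2 fold change was 0.99 in edgeR with or without it, with SE 0.675 and 0.194. With only the adult groups fitted, edgeR called Egln3 as well. The Egln3 call over both ages held when each of the 11 libraries was left out in turn (log2 1.01 to 1.27, edgeR adjusted p = 0.000639 to 0.0107). The adult call was lost without adult sham replicate 1 (edgeR adjusted p = 0.0943), adult sham replicate 3 (0.111), adult burn replicate 2 (0.0937) or adult burn replicate 3 (0.112). The young call was lost without young sham replicate 2 (edgeR adjusted p = 0.0935), young sham replicate 3 (0.0784) or young burn replicate 3 (0.397), the last of which leaves 1 young burn library whose spread is taken from the other groups. Summed neutrophil markers separated burned from sham mice as well, at 9.12 to 10.4 CPM in adult sham, 17.3 to 23.5 in adult burn, 5.87 to 7.31 in young sham and 14.1 to 38.3 in young burn, and of these 8 genes 3 were at 0 in at least 1 library. Within this list S100a8, S100a9 and Mmp9 separated upward in both ages, and the other genes did not. In adults alone Il1r2 separated upward and Cxcr2 downward, both at low levels. Summed macrophage markers stood at 281 to 341 CPM in adult sham, 337 to 467 in adult burn, 276 to 375 in young sham and 471 to 800 in young burn, with all 8 genes above 0 in every library. The muscle fibre sum separated in young mice, at 117109 to 157830 CPM in sham and 79208 to 103993 in burn, and overlapped in adults. The sum of 6 smooth muscle and pericyte genes separated in adults, at 823 to 862 CPM in sham and 676 to 704 in burn, and overlapped in young mice. Most of it was Rgs5, at 651 to 706 CPM in adult sham and 520 to 570 in adult burn. Myh11 was also lower in every adult burn library, and the other genes of the list overlapped. The sum of 8 heat shock genes separated in adults, at 1302 to 1534 CPM in sham and 1832 to 1999 in burn. It overlapped in young mice, at 1185 to 1320 CPM in sham and 1288 to 5021 in burn. Within this list only Hspb1 separated in adults, at 174 to 218 CPM in sham and 335 to 415 in burn, and the other genes overlapped. The part of these markers in the Egln3 difference was not tested, and in bulk muscle fewer cells of a type and less RNA per cell cannot be told apart.

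**Figure D2:**
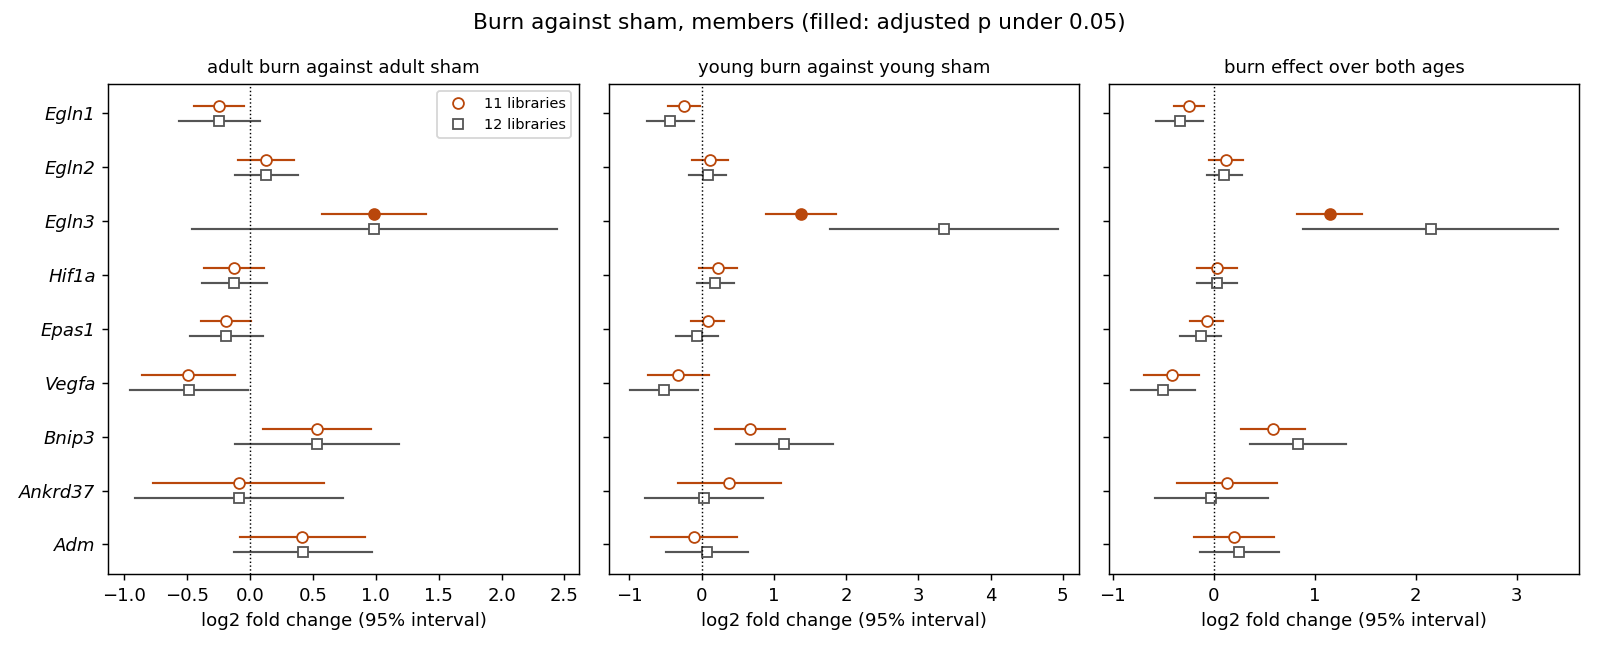
Log2 fold changes of burn against sham for the 9 genes in adults, in young mice and over both ages, with 95% intervals, from 11 libraries (circles) and all 12 (squares); filled points passed an adjusted p of 0.05. The 3 Egln3 circles at 0.99, 1.38 and 1.15 are the filled ones, and the interval of Egln3 widens when the 12th library is included.

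Neither of the other prolyl hydroxylases was called after burn by edgeR on the 11 libraries. Egln1, the main oxygen sensor of most tissues, read 212, 242 and 231 CPM in adult sham, 191, 192 and 195 in adult burn, 203, 185 and 175 in young sham, and 160, 103 and 154 in young burn. Every burned mouse lay below every sham mouse of its age, a downward separation that 2.13% of all genes showed in the 11 libraries. Over both ages the Egln1 log2 fold change was -0.25 (SE 0.0703, unadjusted p = 0.00302), which was not called after adjustment (edgeR adjusted p = 0.0872), although DESeq2 on the same libraries did call it (adjusted p = 0.0196). Egln2 read 108, 104 and 109 CPM in adult sham, 108, 117 and 127 in adult burn, 98.4, 84.0 and 78.5 in young sham, and 91.2, 89.1 and 96.1 in young burn. Sham and burn libraries of Egln2 overlapped in both ages (log2 0.12 over both ages, 95% interval -0.04 to 0.29).

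The factors themselves showed no burn call. Hif1a read 39.3, 41.9 and 40.3 CPM in adult sham, 42.8, 34.2 and 34.3 in adult burn, 39.5, 44.4 and 40.0 in young sham, and 46.2, 45.5 and 49.7 in young burn. Young burn lay above young sham in every library, an upward separation found in 16.7% of all genes in the 11 libraries, and the adult groups overlapped. Its log2 fold change over both ages was 0.03, with a 95% interval of -0.16 to 0.23. Epas1, the alpha subunit best known from endothelial cells, read 173, 176 and 166 CPM in adult sham, 146, 149 and 157 in adult burn, 154, 157 and 162 in young sham, and 181, 120 and 150 in young burn. Adult burn lay below adult sham in every library without being called (log2 -0.19, SE 0.0943, edgeR adjusted p = 0.390), a downward separation found in 9.76% of all genes. Summed endothelial markers read 550 to 595 CPM in adult sham and 498 to 542 in adult burn, with all 10 genes above 0 in every library. Of this list, Kdr and Ptprb lay lower in every adult burn library than in any adult sham one. The other markers, among them Pecam1 and Cdh5, overlapped between these groups. The part of these markers in the Epas1 values was not tested.

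Among the targets, Bnip3 came closest to a call. It read 177, 213 and 104 CPM in adult sham, 201, 270 and 241 in adult burn, 105, 73.9 and 79.5 in young sham, and 130, 299 and 142 in young burn. Adult groups overlapped in 1 burned and 1 sham mouse. Young groups did not overlap, an upward separation found in 16.7% of all genes in the 11 libraries. Over both ages its log2 fold change was 0.59 (SE 0.149, edgeR adjusted p = 0.0505), and it passed by DESeq2 on the same libraries (adjusted p = 0.0121). With all 12 libraries it was 0.84 (SE 0.225, edgeR adjusted p = 0.0913; DESeq2 adjusted p = 0.0202). In edgeR it passed without adult sham replicate 2 (adjusted p = 0.0203), adult burn replicate 1 (0.0453) or young sham replicate 1 (0.0338). Over 22.3% of its exon bases Bnip3 is overlapped by an opposite-strand gene, Gm45507, which had 0 counts in every library, and the strand counted is not given.

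Vegfa, the classical target, did not follow Egln3 and Bnip3. It read 145, 146 and 154 CPM in adult sham, 121, 77.5 and 119 in adult burn, 96.7, 138 and 160 in young sham, and 112, 67.6 and 96.5 in young burn. All adult burn values lay below adult sham, a downward separation found in 9.76% of all genes in the 11 libraries, and young groups overlapped. Over both ages the log2 fold change was -0.42 (SE 0.130, edgeR adjusted p = 0.116), and the call was made without young sham replicate 1 (log2 -0.49, edgeR adjusted p = 0.0282). Ankrd37 was the most thinly counted of the 9, at 11 to 31 counts per library. It read 4.55, 4.31 and 2.33 CPM in adult sham, 3.02, 3.43 and 4.08 in adult burn, 2.92, 4.86 and 4.14 in young sham, and 4.12, 2.01 and 6.34 in young burn, with overlap in both ages and a 95% interval of -0.36 to 0.63 for the log2 difference over both ages. Over 26.4% of its exon bases Ankrd37 is overlapped by the opposite-strand genes Lrp2bp and Ufsp2. These had 15 to 85 and 120 to 202 counts per library, and the strand counted is not given. Their part in the Ankrd37 values was not tested. Adm, with 27 to 83 counts per library, read 9.72, 6.12 and 9.76 CPM in adult sham, 8.89, 15.002 and 10.6 in adult burn, 10.5, 8.10 and 7.31 in young sham, and 7.35, 11.3 and 8.58 in young burn. Sham and burn groups of Adm overlapped in both ages (log2 0.20, 95% interval -0.20 to 0.60).

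Age without injury was the second comparison. Egln3 and Bnip3 were lower in young sham than in adult sham muscle, 2 of 9 genes, where 11.8% of all genes were called and 6.49% were called lower. The log2 fold change was -0.91 for Egln3 (SE 0.216, edgeR adjusted p = 0.0142) and -0.94 for Bnip3 (SE 0.208, edgeR adjusted p = 0.0104). Young and adult sham libraries of Egln3 did not overlap, while the lowest adult Bnip3 value, 104 CPM, lay under the highest young one, 105 CPM. Egln1 (log2 -0.29, edgeR adjusted p = 0.0538) and Egln2 (-0.31, 0.0721) were lower in every young sham library than in any adult one without being called, as was Epas1 (-0.13, 0.391). A downward separation of this kind was seen in 15.4% of all genes. Hif1a differed by 0.02 on the log2 scale (95% interval -0.22 to 0.26). In all 12 libraries the log2 fold changes were -0.90 for Egln3 (edgeR adjusted p = 0.516) and -0.93 for Bnip3 (edgeR adjusted p = 0.111), and none of the 9 was called in edgeR or DESeq2, where edgeR called 3.76% of all genes and held 2 of the 9, and 20.2% of all genes, at an unadjusted p under 0.05. DESeq2 called 5.38% of all genes in these 12 libraries. Leaving out adult sham replicate 2 ended both calls (edgeR adjusted p = 0.0741 for Egln3 and 0.0576 for Bnip3), as did leaving out young sham replicate 3 (0.0745 and 0.0572), and young sham replicate 2 ended that of Egln3 (0.0627). Without young sham replicate 1, Egln1 (edgeR adjusted p = 0.0261) and Egln2 (0.0204) were called as well.

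Between burned mice of the 2 ages, the calls among the 9 genes were in Hif1a and Bnip3, a share near that of all genes. Hif1a was higher in young burn (log2 0.37, SE 0.121, edgeR adjusted p = 0.0413) and Bnip3 lower (log2 -0.80, SE 0.230, edgeR adjusted p = 0.0246), 2 of 9 genes where 20.7% of all genes were called. In the 11 libraries neither gene overlapped between the burn groups. Of the 9, Egln1, Egln2, Egln3 and Adm also lay lower in every young burn library than in any adult one and Ankrd37 higher, and separations downward and upward were each found in 26.6% of all genes. With young burn replicate 2 included, where 10.8% of all genes were called and 15.7% separated upward, edgeR called 0 of the 9 (4 at an unadjusted p under 0.05, with 28.4% of all genes). DESeq2 called 1 of the 9, Egln1, where it called 11.3% of all genes. Hif1a still did not overlap (log2 0.34, edgeR adjusted p = 0.0780), but Bnip3 did (log2 -0.32, edgeR adjusted p = 0.529), and Egln3 turned from -0.52 (edgeR adjusted p = 0.0924) to 1.46 (edgeR adjusted p = 0.165). The Hif1a call was made in 6 of 20 fits. It was lost on the 11 libraries in DESeq2 (adjusted p = 0.108) and in edgeR without a filter (adjusted p = 0.154), with library size alone (0.0822) and with only the burn groups fitted (0.0642). Egln3 was called lower instead without a filter (edgeR adjusted p = 0.00154) and with only the burn groups fitted (0.0403). The Hif1a call was also lost when any of 7 libraries was left out, namely adult sham replicates 1 (edgeR adjusted p = 0.0538), 2 (0.0523) and 3 (0.0504), adult burn replicates 2 (0.125) and 3 (0.124), and young burn replicates 1 (0.115) and 3 (0.222). The Bnip3 call was lost without adult burn replicates 2 (edgeR adjusted p = 0.0781) or 3 (0.0554), or young burn replicates 1 (0.153) or 3 (0.0968). Without young sham replicate 1, Egln1 (edgeR adjusted p = 0.0463) and Egln2 (0.0407) were called lower too. These comparisons share libraries with those above, since each group enters more than 1 of them.

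**Figure D3:**
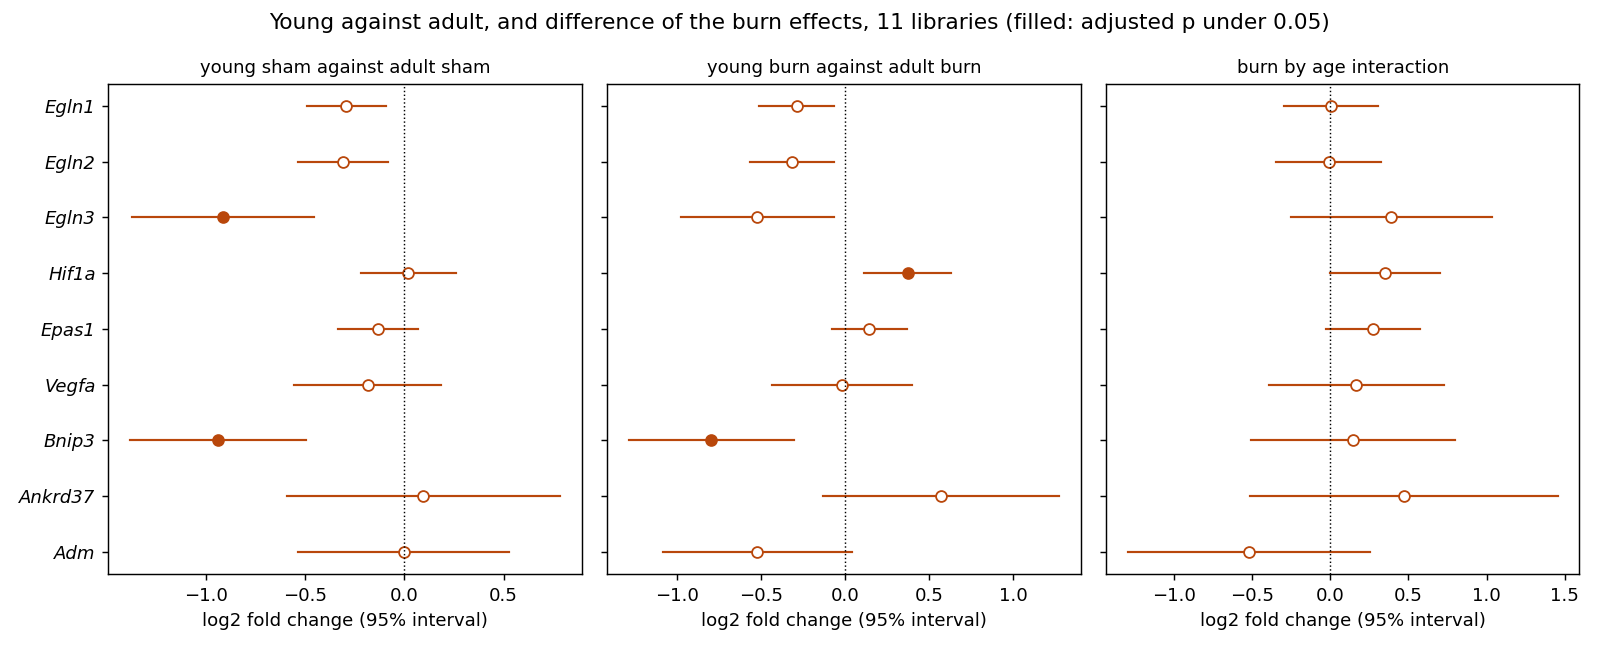
Log2 fold changes of young against adult mice, sham and burned, and the difference of the burn effects (young minus adult), with 95% intervals, from 11 libraries; filled points passed an adjusted p of 0.05. Egln3 and Bnip3 are filled at -0.91 and -0.94 in sham mice, Hif1a and Bnip3 at 0.37 and -0.80 in burned mice, and no interaction is filled.

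Whether the burn effect itself differed by age was tested by the interaction term, and none of the 9 genes was called in either library set, against 0.0949% of all genes in the 11 libraries and 0 in the 12. At an unadjusted p under 0.05 the interaction held 0 of the 9 in the 11 libraries, where 11.1% of all genes passed, and Egln3 alone in the 12, where 7.2% did. DESeq2 called 0 of the 9 as well on either library set, with no adjusted p for 4 of them in the 11 libraries. Its share of all genes was 0.419% in the 11 libraries and 0.00806% in the 12. For Egln3 the young effect exceeded the adult one by 0.39 on the log2 scale, with a 95% interval of -0.25 to 1.03. For Hif1a the difference was 0.35, with an interval that ran from just under 0 to 0.70 (edgeR adjusted p = 0.448). For Bnip3 it was 0.14 (95% interval -0.51 to 0.80). These intervals leave room for differences of the size of the burn effects themselves.

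Young burn replicate 2 carried most of the Egln3 signal in young burn mice. Its 3416 Egln3 counts exceeded the 3126 of the other 11 libraries together, of which adult burn replicate 3 had the most with 559. Its Egln3 level was 3.33 above the mean of the other young burn libraries on the log2 scale, the 6th highest ratio of 12408 genes. Bnip3 was 1.13 above (rank 387 from the highest) and Adm 0.49 above. Hif1a and Egln2 lay near the middle of all genes at -0.08 and -0.07, where the median gene stood at -0.09. Epas1 was at -0.46, Egln1 at -0.61, Vegfa at -0.62 and Ankrd37 at -1.20, so the HIF targets of this library did not share a direction. Of other HIF targets, Hmox1, the heme-degrading enzyme, was 2.39 above, the glucose transporter Slc2a1 2.10 and Pfkfb4 1.56, whereas Pfkfb3 (-3.00), the repressor Bhlhe40 (-2.15) and the carbonic anhydrase Car9 (-1.78) were below. These 6 were singled out after their values were seen. Of the 22 glycolytic targets tested, 2 were more than 2-fold above and 6 more than 2-fold below, with a median of -0.36, and of the 28 other targets 4 and 3, with a median of 0.09. The heat shock genes Hspa1a, Hspa1b and 6 others summed to 5021 CPM in this library and to 1185 to 1999 CPM in the rest, and the neutrophil sum of 38.3 CPM was also the highest, with 23.0 CPM of it from S100a8. This is 1 library, without a test, and the part of these markers in its Egln3 level was not tested.

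**Figure D4:**
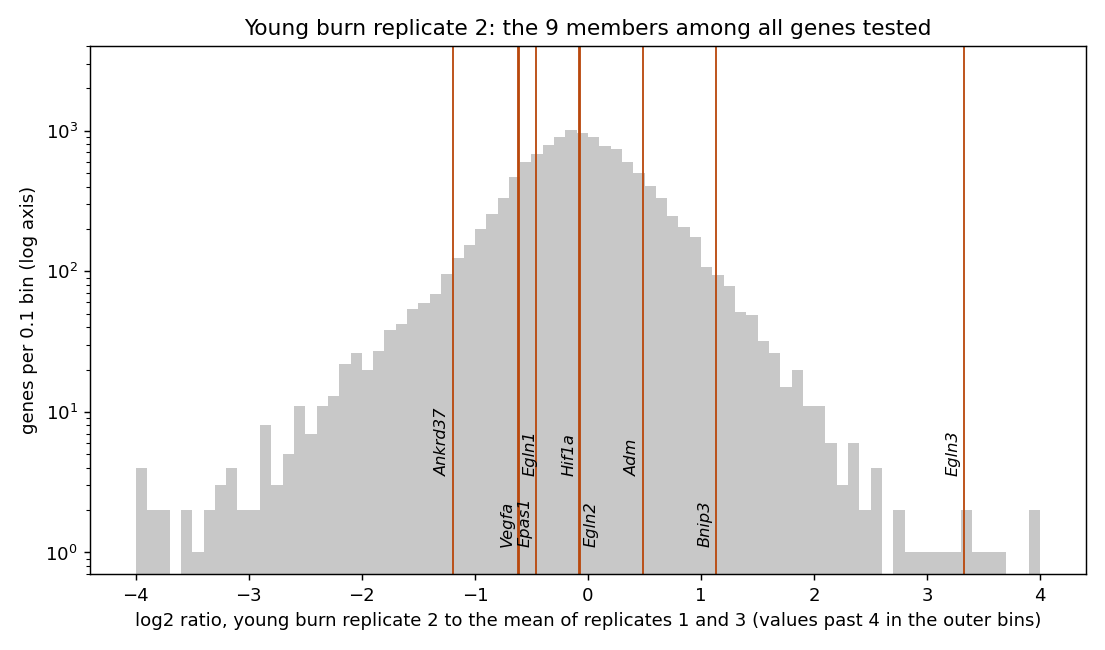
Histogram of the log2 ratio of young burn replicate 2 to the mean of young burn replicates 1 and 3 over the 12408 genes tested (log count axis), with the 9 genes as lines. Egln3 at 3.33 stands in the upper tail, Bnip3 at 1.13 inside it, and the remaining 7 between -1.20 and 0.49.

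Among the 9 genes, the log2 levels of Egln3 and Bnip3 had the highest Pearson r over the 11 libraries, 0.918, as a description that includes the group differences. Egln2 followed with Bnip3 (0.836) and with Egln3 (0.792), while Egln1 and Egln3 gave -0.03. The genes most like Egln3 in these libraries were Psmb2, a proteasome subunit (r = 0.974), Pnpla2, the adipose triglyceride lipase (0.974), and Aspscr1 (0.968). With all 12 libraries the same pairs gave 0.987, 0.891 and 0.854. For Bnip3 they were Tox4 (0.990), the clock repressor Cry2 (0.979) and the casein kinase Csnk1d (0.976). Egln2 was near Ppp2r2d (0.971) and Gsk3a (0.968), and Egln1 nearest to Fundc2 (0.959), Wwp1 (0.953) and Synm (0.950). Hif1a was nearest to Coq6 (0.962), Epas1 to Mrpl12 (0.918), Vegfa to Miga2 (0.914), Ankrd37 to Psmb10 (0.889) and Adm to Zfp64 (0.931). With 12651 genes and 11 libraries, some genes reach a high r with any pattern.

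**Figure D5:**
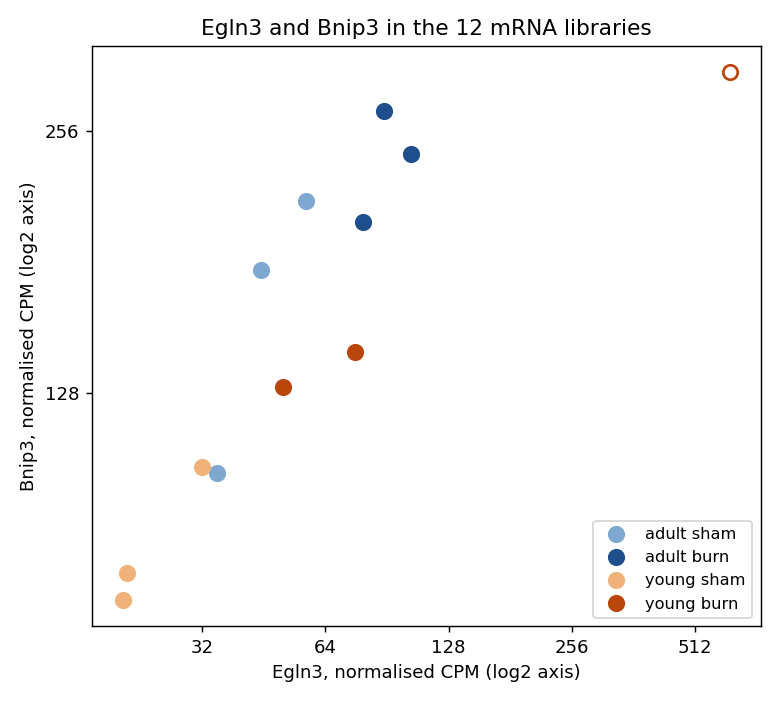
Egln3 against Bnip3, normalised CPM on log2 axes, for the 12 mRNA libraries coloured by group, with young burn replicate 2 open. The young sham mice sit lowest at 20.5 to 31.9 CPM of Egln3, and the open point stands apart at 624 CPM.

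The rest of the pathway was read from 4 lists that leave the 9 genes out. On the 11 libraries edgeR called 11.8% of all genes in young against adult sham and 20.7% in young against adult burn. It called 0.909% in adult burn, 0.664% in young burn and 2.15% over both ages. The HIF machinery list (partners, hydroxylases and the VHL ligase) had 14 of 15 genes tested. Burn over both ages called 1 of them, Arnt2, a HIF partner subunit, which was lower (log2 -1.74, SE 0.409, edgeR adjusted p = 0.0383) at 0.542 to 6.9995 CPM, a level near the filter. The list median was -0.08, beside 0.00433 for all genes. None of the 14 was called in either age alone on the 11 libraries by edgeR, or by DESeq2, which gave 2 of them no adjusted p and called 1 in young mice on the 12. Of all genes DESeq2 called 1.71% in adults and 1.52% in young mice on the 11, and 3.48% in young mice on the 12. At an unadjusted p under 0.05, edgeR on the 12 libraries held 3 of the 14 in adults and 6 in young mice, where 6.87% and 20.3% of all genes passed. In young sham, Hif1an, which encodes the asparagine hydroxylase that blocks the activity of the factors, was lower than in adult sham (log2 -0.66, edgeR adjusted p = 0.0266). It read 108, 109 and 120 CPM in adult sham and 103, 59.1 and 54.4 in young sham. In young burn against adult burn, where 20.7% of all genes were called, Cited2 (-1.02, edgeR adjusted p = 0.0477), Cul2 (-0.41, 0.0286) and Elob (-0.44, 0.0237) were lower. These 3 of the 14 were also called in the 12 libraries, where 10.8% of all genes were called.

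Of the glycolytic targets, 22 of 23 entries were tested, Aldoa having 2 entries in the annotation. Over both ages DESeq2 called 3.22% of all genes on the 11 libraries and 3.09% on the 12. Of the 22 entries, burn over both ages called 0 in edgeR and DESeq2, in either library set, and their median was -0.09 in the 11 libraries. At an unadjusted p under 0.05, edgeR on the 12 libraries held 1 of them, where 19.5% of all genes passed. In adults Pfkfb4, a regulator of glycolytic flux, rose (log2 0.58, SE 0.100, edgeR adjusted p = 0.0176), from 57.3, 69.6 and 65.8 CPM to 91.9, 101 and 95.2 CPM. In young burn replicates 1 and 3 it read 45.3 and 47.6 CPM, under all 3 young sham values of 58.9, 58.5 and 67.5 CPM, while replicate 2 read 137 CPM. In young against adult sham, where 11.8% of all genes were called, Eno1 (log2 0.36, edgeR adjusted p = 0.0414), Gapdh (0.44, 0.0479) and Pgam2 (0.57, 0.0334) were higher and Slc2a3, a glucose transporter, lower (-1.18, 0.0195). Between the burn groups 1 of the 22 was higher, Eno1 (log2 0.36, edgeR adjusted p = 0.0434), and 3 were lower, Pfkfb3 (-1.31, 0.0287), Pfkfb4 (-1.04, 8.95e-05) and Slc2a3 (-1.77, 0.00301), of which the 12 libraries called Slc2a3 (0.00424). The share of all genes called there was 20.7% in the 11 libraries and 10.8% in the 12. The Aldoa entries were called in opposite directions in the sham comparison, 0.45 and -1.34, and are left as uncertain.

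Among 28 tested genes of the list of other targets, burn over both ages raised Hmox1 (log2 0.51, SE 0.108, edgeR adjusted p = 0.0229) and lowered Bhlhe41, a transcriptional repressor of the clock (log2 -0.68, SE 0.133, edgeR adjusted p = 0.0164). Hmox1 read 13.1 to 15.5 CPM in adult sham, 19.9 to 24.0 in adult burn, 14.9 to 16.2 in young sham, and 18.3, 113 and 24.5 in young burn. In the 12 libraries the Bhlhe41 call stood (edgeR adjusted p = 0.0357). Bhlhe41 was the 1 gene of this list called in young burn (log2 -0.90, edgeR adjusted p = 0.0448). In adults Lox, the collagen cross-linking enzyme, rose with burn (log2 1.16, edgeR adjusted p = 0.0377). The list median over both ages was -0.04. In young against adult sham, where 11.8% of all genes were called, Angptl4, a lipase inhibitor (log2 2.47, edgeR adjusted p = 0.000847), Lox (1.29, 0.00461), Plod2, a collagen lysyl hydroxylase (1.06, 0.00557), and Ndufa4l2 (0.51, 0.0222) were higher and Bhlhe40 was lower (-0.88, 0.0117). Between the burn groups, where 20.7% of all genes were called, Plod2 (log2 1.29, edgeR adjusted p = 0.00139) and Ndufa4l2 (0.55, 0.0129) were higher, and Bhlhe40 (-0.79, 0.0245) and Insig2 (-0.35, 0.0491) lower. Among 15 tested ligands and receptors of the VEGF and adrenomedullin systems, Ramp1, a co-receptor of the calcitonin receptor family, fell with burn over both ages (log2 -0.55, SE 0.0998, edgeR adjusted p = 0.00918; in the 12 libraries -0.68, edgeR adjusted p = 0.0466). Kdr, the main receptor for Vegfa, fell in adult burn (log2 -0.70, SE 0.147, edgeR adjusted p = 0.0374), from 53.8, 55.3 and 62.8 CPM to 39.6, 34.5 and 31.7 CPM, as did Ramp1 (-0.64, 0.0377). In the same mice the endothelial sum, which includes Kdr, read 550 to 595 CPM in sham and 498 to 542 in burn. Apart from Kdr, only Ptprb of that list separated, also downward, and the other markers overlapped. The smooth muscle and pericyte sums, made up mostly of Rgs5, read 823 to 862 CPM in sham and 676 to 704 in burn. The part of these markers in the Kdr and Ramp1 values was not tested. In young burn against adult burn, where 20.7% of all genes were called, 6 of the 15 were higher, among them Calcrl, the adrenomedullin receptor (log2 0.90, edgeR adjusted p = 0.000427), and its partner Ramp2 (0.60, 0.0247), and 1 was lower, Vegfd (-0.93, 0.0399). In the 12 libraries 3 of the 15 were higher and 0 lower, where 10.8% of all genes were called. The endothelial sum, whose list shares Kdr and Flt1 with this one, read 601 to 856 CPM in young burn, above adult burn, and its part was not tested. In young against adult sham, where 11.8% of all genes were called, Ramp1 was higher (log2 0.49, edgeR adjusted p = 0.0231) and Vegfb, a ligand of Flt1, lower (-0.49, 0.00940).

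Many of these list calls were not made with young burn replicate 2 included. That library is in neither the adult burn nor the sham comparison. It enters them only through the scaling, filter and estimate of the spread that all groups share. With all 12 libraries Pfkfb4 (edgeR adjusted p = 0.748), Lox (0.627), Ramp1 (0.603) and Kdr (0.544) were not called in adult burn, nor was Hmox1 over both ages (0.1404) or Vegfd between the burn groups (0.391). Of the genes named for young against adult sham, Angptl4 (edgeR adjusted p = 0.00604), Plod2 (0.0256) and Slc2a3 (0.0487) were called in the 12 libraries and the others were not. Bhlhe41 was not called there in young burn (edgeR adjusted p = 0.0598). Between the burn groups Calcrl (edgeR adjusted p = 0.00446), Ramp2 (0.0499), Plod2 (0.0105), Ndufa4l2 (0.0373) and Insig2 (0.0389) were called there as well, and Bhlhe40 was not (0.0692).

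Small RNA offered a separate reading. The microRNA best known as a HIF target is mir-210, whose mature arms in RefSeq on GRCm38.p6, seed in capitals (bases 2 to 8), stand beside those of the other entries read here. Counts are per hairpin and do not separate the arms.
mmu-miR-210-3p, chr7:141221407-141221428 (minus strand): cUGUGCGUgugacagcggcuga
mmu-miR-155-5p, chr16:84714143-84714165 (plus strand): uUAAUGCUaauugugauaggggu
mmu-miR-199a-5p, chr9:21496537-21496559 (minus strand), with a second copy at chr1:162217844-162217866 (plus strand): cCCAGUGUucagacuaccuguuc
mmu-miR-322-5p, chrX:53054306-53054327 (minus strand): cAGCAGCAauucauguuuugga
No 2 of these share a seed. The 2 mir-199a copies have identical mature arms, so their entries are not separate readings. The mir-210 hairpin read 61.2, 55.6 and 50.1 CPM in adult sham, 57.8, 49.5 and 49.4 in adult burn, 72.5, 74.8 and 41.1 in young sham, and 60.8, 56.2 and 65.7 in young burn. Sham and burn overlapped in both ages, and the log2 fold change was -0.09 in adults (95% interval -0.50 to 0.32) and -0.05 in young mice (-0.45 to 0.34). Young burn replicate 2, with its high Egln3, read 56.2 CPM of mir-210, below its group mates and inside the adult sham range.

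Across 299 miRNA entries tested, edgeR called 0 in either burn comparison, with 23 in adults and 37 in young mice at an unadjusted p under 0.05. DESeq2 called 1 and 0, and 0 of the 5 entries read here. At an unadjusted p under 0.05, mir-155 was lower in adult burn (log2 -0.34) and higher in young burn (0.37), and both mir-199a copies were lower in young burn, none of which passed the adjustment in edgeR. Age separated them. In young against adult sham, where 56.2% of entries were called, mir-155 was lower (log2 -1.07, edgeR adjusted p = 1.34e-05) and mir-322 (0.65, 0.00175) and both copies of mir-199a (0.63, 0.000115 and 0.75, 0.000167), a miRNA described as targeting Hif1a, were higher. In young against adult burn, where 55.2% were called, mir-322 (log2 1.04, edgeR adjusted p = 2.04e-05) and both mir-199a copies (0.58, 0.000290 and 0.58, 0.00212) were higher again, and mir-210 was called in neither (log2 0.18, 95% interval -0.22 to 0.59, and 0.22, -0.19 to 0.62). Without young sham replicate 3, its lowest library at 41.1 CPM, mir-210 was called higher in young than adult sham (log2 0.43, edgeR adjusted p = 0.0367).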

How the data were processed

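Per the labels, the study's methods and the submitters' processing notes, poly-A libraries were sequenced as paired reads of 75 bases, aligned to GRCm38 with STAR 2.7.5c and counted on Gencode M25 by GeneCounts. For the strand counted, the sources used here name no setting. The deposited values are raw counts. The deposited miRNA counts came from trimming with mirDeep2, STAR and featureCounts 2.0.1, with 1704531 to 3149396 counts per library. Symbols, positions and exon lengths were taken from Gencode M21, in which 260 genes had no match.

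Here, edgeR 4.0.16 in R 4.3.3 fitted 1 mean per group (or age and burn) after TMM scaling and filterByExpr (minimum count 10, minimum total 15), without covariates for the group comparisons. Tests were two-sided, at an adjusted p under 0.05. Correlations and library ratios used log2 CPM with a prior count of 2. The small RNA fits used all 12 libraries. DESeq2 1.42.0, other scalings, no filter, only the groups compared, a replicate block and each library left out were the alternatives, and DESeq2 on all 12 libraries was added after the data had been seen. The fit was tested on simulated data. The 9 genes and all lists were chosen with earlier results of these data known. Named were the 9 genes, list genes called in a comparison and, for likeness, up to 3 genes per member by Pearson r. The labels count mice as replicates, and no source names molecular identifiers, so the precision given by depth covers counting error only. Figures were drawn with matplotlib 3.10.9.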

Additional observations from a re-analysis of the deposited data

Results flagged for a closer look

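Pfkfb4, a glycolytic regulator among the HIF targets, was the 1 result of 93 with an interaction test (the 9 genes, the list genes and the miRNA entries) whose burn effect differed by age. The interaction was called in 0.0949% of all genes in the 11 libraries and in 0 of 299 miRNA entries. All lists were chosen with earlier results of these data known, and the study itself named Pfkfb4 as relatively raised in adult burn. The young burn effect minus the adult one was -0.97 on the log2 scale in the 11 libraries (SE 0.154, edgeR adjusted p = 0.0241), from 0.58 in adults (edgeR adjusted p = 0.0176) and -0.39 in young mice (edgeR adjusted p = 0.123). With young burn replicate 2, which read 137 CPM against 45.3 and 47.6 CPM in its group mates, the difference was -0.26 (SE 0.448, edgeR adjusted p = 0.913), and the young effect turned to 0.32 (edgeR adjusted p = 0.592).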

How the results depend on the processing

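Of 1063 recomputed values of the 9 genes and mir-210, 929 kept their direction and side of the threshold, 26 were newly called, 43 lost a call and 65 changed sign. Most of these values were not called in the main fit and could not lose a call. Counting the main fit, Egln3 was called in 17 of 18 fits over both ages, 13 of 20 in adults and 15 of 20 in young mice. For young against adult sham, Egln3 was called in 15 of 20 fits and Bnip3 in 16. Between the burn groups Bnip3 was called in 13 of 20 and Hif1a in 6. The burn call of Egln3 over both ages stood under every alternative run on the 11 libraries, and the interaction called 0 of the 9 genes throughout. With all 12 libraries edgeR called 0 of the 9 in each comparison. The share of all genes called also moved with the setting. In the main fits it was 11.8% in young against adult sham, 0.909% in adult burn and 0.664% in young burn. It was 20.7% between the burn groups and 2.15% over both ages. Without a filter it was 2% in adult burn, 2.11% in young burn, 10.1% between the burn groups and 2.85% over both ages. With library size alone it was 14.1% in young against adult sham, 16.2% between the burn groups and 1.93% over both ages. For young against adult sham the count of 2 became 4 with library size alone, 0 in DESeq2 on all 12 libraries and 0 to 4 with a library left out. For adult burn the count of 1 became 3 without a filter, 0 with the replicate block, 0 in DESeq2 on all 12 libraries and 0 to 1 with a library left out. For young burn the count of 1 became 2 without a filter, 0 with the replicate block, 2 in DESeq2 on all 12 libraries and 0 to 1 with a library left out. For young against adult burn the count of 2 became 1 in DESeq2, 1 with library size alone, 0 with the replicate block, 1 in DESeq2 on all 12 libraries and 0 to 4 with a library left out, and it stayed at 2 without a filter and with only the groups compared fitted, with Egln3 in place of Hif1a in both. For burn over both ages the count of 1 became 3 in DESeq2, 3 without a filter, 2 with library size alone, and 1 to 3 with a library left out. The 5 miRNA entries, 2 of them mir-199a copies, were called 7 times, all between the ages, and 7 to 8 times with a library left out. Between the ages 56.2% of all entries were called in sham mice and 55.2% in burned mice. With the replicate block edgeR called 0.569% of all genes in adult burn, 0.0553% in young burn and 14.5% between the burn groups. With only the burn groups fitted it called 21.4% between them. On the 11 libraries DESeq2 called 15.5% of all genes between the burn groups and 3.22% over both ages. On all 12 it called 5.38% in young against adult sham, 0.0887% in adult burn, 3.48% in young burn and 11.3% between the burn groups. DESeq2 gave no adjusted p in 9 of the member results. The cause of these changes was not tested.

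The deviations of the 15 same-numbered pairs of libraries correlated at -0.17 to 0.13, and 2 exceeded 0.1. Among the 30 differently numbered pairs they correlated at -0.18 to 0.20, and 5 exceeded 0.1. Deviations within a group sum to 0, so these values cannot settle whether replicate numbers pair the mice. With the replicate block the calls of Egln3 in adults (edgeR adjusted p = 0.0632) and young mice (0.0701) and of Bnip3 (0.0598) and Hif1a (0.0783) between the burn groups were not made, while that of Egln3 over both ages was. No other call of the 9 genes changed with the block.

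Library size alone, in place of TMM, moved the median gene by -0.13 for young against adult sham, 0.16 for young burn and 0.18 for the interaction. The share of calls that were higher went from 44.8% to 19.7% for young against adult sham, from 69.0% to 95.8% for young burn, from 68.0% to 88.9% for burn over both ages and from 83.3% to 100% for the interaction. Under that scaling mir-210 was called in young against adult sham (log2 0.69, edgeR adjusted p = 0.00896) and in young against adult burn (0.56, 0.0345).

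The sign changes on the log2 scale concerned values that were not called on either side. For young against adult sham they were Adm at 0.00917 (12 libraries), 0.00357 (DESeq2), 0.000724 (relative log expression), 0.00494 (only the groups compared) and 0.00299 (DESeq2, 12 libraries), Hif1a at -0.0147 (no filter) and -0.11 (library size alone), and Ankrd37 at -0.0374 (library size alone). For young burn against young sham they were Epas1 at -0.0688 and Adm at 0.0768 (12 libraries), -0.0617 and 0.0851 (DESeq2, 12 libraries), and Adm at 0.0480 (library size alone). For young against adult burn they were Egln3 at 1.46 and Epas1 at -0.00323 (12 libraries), Egln3 at 1.48 (DESeq2, 12 libraries) and Vegfa at 0.00942 (library size alone). For the interaction they were Egln1 at -0.19 and Vegfa at -0.0281 (12 libraries), -0.18 and -0.0171 (DESeq2, 12 libraries), Egln1 at -0.00708 (DESeq2), -0.00199 (no filter) and -0.00723 (relative log expression), and Egln2 at 0.16 (library size alone). Ankrd37 over both ages stood at -0.0248 (12 libraries) and -0.0205 (DESeq2, 12 libraries), and mir-210 in adult burn at 0.11 (library size alone).

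With each library left out in turn, these ranged across 0. In young against adult sham they were Adm from -0.18 to 0.11, Ankrd37 from -0.15 to 0.27 and Hif1a from -0.0345 to 0.0560. In adult burn it was Ankrd37 from -0.34 to 0.0867, and in young burn Adm from -0.22 to 0.0547, Epas1 from -0.0573 to 0.21 and mir-210 from -0.30 to 0.0977. Between the burn groups they were Vegfa from -0.20 to 0.0909 and Epas1 from -0.00176 to 0.27. For the interaction they were Egln1 from -0.0593 to 0.0687, Bnip3 from -0.0980 to 0.39, Vegfa from -0.0172 to 0.31 and Egln2 from -0.0931 to 0.0917, and over both ages Hif1a from -0.0222 to 0.0811 and Ankrd37 from -0.0408 to 0.25. Depth limits Ankrd37 and Adm most, at 11 to 31 and 27 to 83 counts per library.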
